A study of Mus musculus with 54 samples.

Results

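Ovaries of second-generation (F2) mice whose father belonged to the dose 2 group were compared with ovaries of F2 mice whose mother did. The comparison took 3 libraries labelled father dose 2 and 3 labelled mother dose 2 (A, B and C in each), which are 6 of the 54 RNA-seq libraries of testis and ovary in the series, and it covered all genes of the ovary count table. The first generation was exposed through drinking water, starting at 8.5 days post-coitum, to a mixture of anti-inflammatory drugs, 1 of their metabolites and the synthetic oestrogen ethinyl-estradiol. At dose 2 the water held 113 ng/L ibuprofen, 225 ng/L 2-hydroxyibuprofen, 112 ng/L diclofenac and 45 ng/L ethinyl-estradiol. At dose 1 it held 11.3 ng/L ibuprofen, 90 ng/L 2-hydroxyibuprofen, 22.5 ng/L diclofenac and 2.25 ng/L ethinyl-estradiol, and control water held 0.001% ethanol. The groups used here were F2 females with a dose 2 father and a control mother, with a dose 2 mother and a control father, with both parents at dose 2, with a dose 1 father or a dose 1 mother, and with control parents. All F2 animals were labelled as untreated, and the labels do not state what an exposed mother drank while she carried them. The design gives 8 weeks as the age of females at sampling, gives a later age for males and states no separate age for F2. Testes of F2 males from the same crosses were also used, for comparison, so by the design they came from older animals than the ovaries. In each cross code the male was taken to come first, as in the sample titles. The headers of the table do not state this order, and if it were the other way round every direction between the father and mother groups would turn.

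The ovary holds oocytes inside follicles, the granulosa and theca cells that feed them and make steroids, corpora lutea that form from ovulated follicles and make progesterone, and a stroma rich in extracellular matrix. The share of each changes over the oestrous cycle, for which the labels give no stage. A reciprocal design of this kind, with the exposed parent on one side or the other, sets descent through sperm beside descent through the oocyte and the womb.

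Total counts were 35.6 to 60.5 M in the 6 libraries, and values are CPM, which are counts per 1e+06 counts after scaling by library size. No label ties libraries A, B and C to separate litters, and the spread behind each p-value is that between these samples, which may be technical. The tissue label held: markers of oocytes such as Gdf9 and of granulosa cells such as Inha were well above 1 CPM in every library, while the sperm protamine gene Prm2 was at 0.140 to 0.176 CPM in father dose 2 libraries and 0.172 to 0.228 CPM in mother dose 2 libraries. Prm2 does not stand for its whole list. The 7 tested testis germ cell genes summed to 82.1 to 83.5 CPM in father dose 2 libraries and 82.8 to 97.0 CPM in mother dose 2 libraries. Father dose 2 library A stood apart from libraries B and C of its group in short transcripts and ribosomal protein genes, as given below, and results that rest on it are given with and without it. Father dose 2 and mother dose 2 were each also set against the same 3 control-parent libraries, so those 2 comparisons are not independent of each other.

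Across 17454 genes tested, 1 gene passed the threshold of 0.05 on the adjusted p of edgeR's quasi-likelihood test between father dose 2 and mother dose 2, which is 0.00573% of genes. That gene was Bsn (gene ID 12217), which encodes bassoon, a scaffold protein of the presynaptic active zone. Bsn had 5.53, 6.78 and 6.80 CPM in father dose 2 libraries, against 14.6, 18.6 and 17.6 CPM in mother dose 2 libraries and 9.70, 10.8 and 11.4 CPM in control-parent libraries. The father libraries were all below the control range and the mother libraries all above it. The difference was -1.41 ± 0.19 on the log2 scale (SE, n = 3 each), which is 2.66-fold lower in father dose 2, with an adjusted p of 0.0275 by edgeR's quasi-likelihood test. Ovaries with both parents at dose 2 had 10.5, 11.9 and 8.89 CPM of Bsn, inside or close to the control range, and father dose 1 ovaries had 17.0, 14.9 and 11.5 CPM, against 18.4, 11.8 and 13.0 CPM in mother dose 1 ovaries. In testis, where Bsn averaged 17.2 CPM in father dose 2 and 16.3 CPM in mother dose 2, the same contrast gave 0.09 ± 0.13 (log2). The longest annotated transcript of Bsn has 15938 bases, and the call did not hold when a trend with transcript length, described below, was removed (-1.06, adjusted p = 0.152 by the same edgeR test). It was also lost when the replicate letter was added as a block (adjusted p = 0.0586), when the fit held only the 6 libraries compared (0.173) or all 27 ovary libraries (0.266), and without father dose 2 library B (0.113), father dose 2 library C (0.21) or mother dose 2 library C (0.203), all by edgeR's quasi-likelihood test.

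Below that threshold the comparison held many small differences. An unadjusted p below 0.05 was reached by 1726 genes higher in father dose 2 (9.89% of those tested) and by 1833 lower (10.5%). In 2151 genes (12.3%) all father dose 2 libraries were above all mother dose 2 libraries, and in 2256 genes (12.9%) all were below. DESeq2's Wald test, run on the same libraries and genes, passed 920 genes by its own Benjamini-Hochberg adjusted p, 502 higher and 418 lower. Without father dose 2 library A, edgeR's quasi-likelihood test passed 424 genes, 274 of them higher. The number of passing genes therefore depends on the tool and on library A, and below the adjusted threshold genes are described by their values.

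The 5 genes of smallest p that were higher in father dose 2, chosen by a fixed rule, did not pass. Acot1, a cytosolic acyl-CoA thioesterase whose close relatives make its counts uncertain, had 25.1, 22.7 and 29.2 CPM in father dose 2 libraries, against 16.2, 16.5 and 15.7 CPM in mother dose 2 libraries and 20.2 ± 1.53 CPM in control-parent libraries (mean ± SD, n = 3). Its difference was 0.67 ± 0.10 (log2, SE), with an adjusted p of 0.0504 by edgeR's quasi-likelihood test. Rbm3, a cold-inducible RNA-binding protein gene, had the same adjusted p of 0.0504 in that edgeR test and a difference of 0.58 ± 0.09, with 240.0, 267 and 256 CPM in father dose 2 libraries, 172, 184 and 154 CPM in mother dose 2 libraries and 235, 196 and 208 CPM in control-parent libraries. For both genes the father libraries lay above and the mother libraries below the control mean. Rbm3 showed the same order at the lower dose, with 269, 244 and 246 CPM in father dose 1 libraries and 178, 166 and 174 CPM in mother dose 1 libraries, so its dose 2 minus dose 1 difference was 0.03 ± 0.12 (log2). Npm2, the oocyte nucleoplasmin that remodels chromatin after fertilisation, had 26.4, 32.6 and 31.2 CPM in father dose 2 libraries, against 18.7, 20.2 and 17.8 CPM in mother dose 2 libraries and 20.3, 23.1 and 18.8 CPM in control-parent libraries. Pir, an iron-binding nuclear protein gene, averaged 16.4 ± 2.22 CPM in father dose 2 and 9.92 ± 1.47 CPM in mother dose 2 (SD, n = 3 each). Metrnl, which encodes the secreted protein meteorin-like, had 74.5, 97.9 and 78.2 CPM in father dose 2 libraries, against 48.3, 58.7 and 49.7 CPM in mother dose 2 libraries and 43.9, 41.3 and 42.4 CPM in control-parent libraries. Npm2, Pir and Metrnl had an adjusted p of 0.0874 in edgeR's quasi-likelihood test, which is the value that 1 step of the adjustment gave to many genes.

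The 4 further genes named as lower in father dose 2 also had an adjusted p of 0.0874 in edgeR's quasi-likelihood test. Hspg2 encodes perlecan, a large proteoglycan of basement membranes, and had 592, 566 and 599 CPM in father dose 2 libraries, against 1071, 773 and 929 CPM in mother dose 2 libraries and 737, 759 and 939.9 CPM in control-parent libraries (-0.66 ± 0.12, log2). Itga10, an integrin chain that binds collagen, had 11.7, 11.4 and 12.0 CPM in father dose 2 libraries, against 18.8, 15.7 and 19.7 CPM in mother dose 2 libraries and 11.7, 12.9 and 11.9 CPM in control-parent libraries. Here the father and control libraries overlapped and the mother libraries stood above both. Wipf2, which encodes a partner of the actin regulators of the Wiskott-Aldrich family, averaged 41.3 ± 1.04 CPM in father dose 2 and 52.5 ± 3.48 CPM in mother dose 2 (SD, n = 3 each). Slc6a17, a neutral amino acid transporter of synaptic vesicles, had 0.671, 1.22 and 0.854 CPM in father dose 2 libraries, against 3.84, 1.76 and 4.99 CPM in mother dose 2 libraries.

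**Figure D1:**
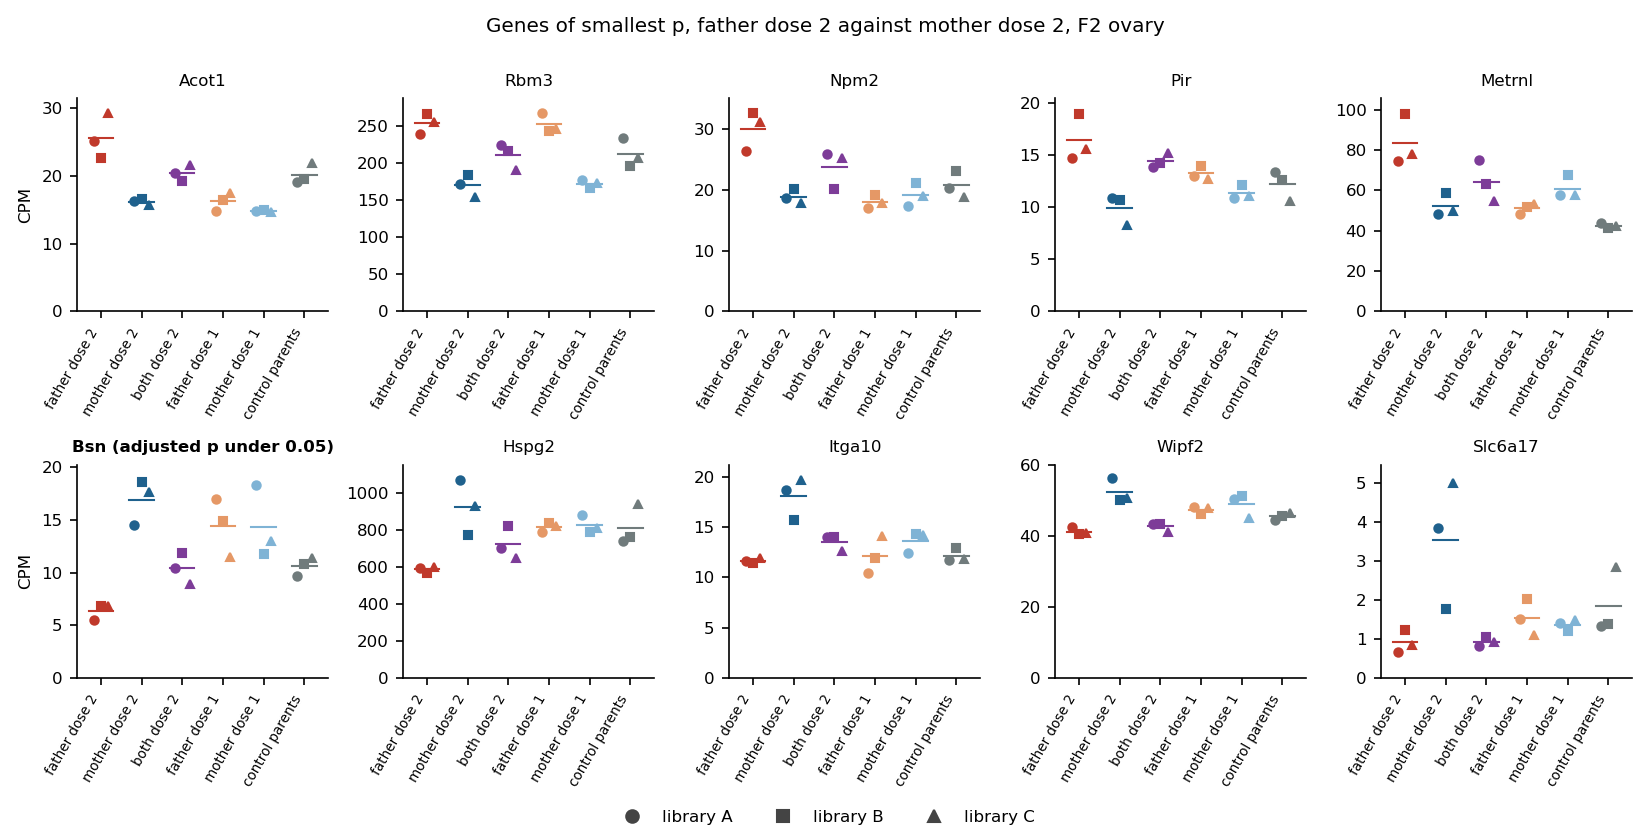
CPM (y axis, from 0) of the 10 genes named by the rule in the 18 F2 ovary libraries, by group (x axis); points are libraries and horizontal lines group means. Bsn is the gene that passed, at 5.53 to 6.80 CPM in father dose 2 libraries and 14.6 to 18.6 CPM in mother dose 2 libraries, and in every panel the father dose 2 and mother dose 2 points do not overlap.

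Among the lists, the greatest median difference upwards was that of the cytosolic ribosomal proteins, which form the small (Rps) and large (Rpl) subunit. All 77 listed genes were tested, and the estimate was higher in father dose 2 for 77 of 77, against 8671 of all 17454 genes. None passed the adjusted p of edgeR's quasi-likelihood test. An unadjusted p below 0.05 was reached by 75 of 77, all higher, beside 9.89% of all genes in that direction, and in DESeq2's Wald test 73 of 77 passed. The median difference was 0.57 (log2) beside -0.0021 for all genes tested. Rpl32 had 383, 559 and 582 CPM in father dose 2 libraries, against 292, 336 and 283 CPM in mother dose 2 libraries and 330, 387 and 292 CPM in control-parent libraries, a difference of 0.74 ± 0.15 (log2). Rpl38 had 149, 197 and 213 CPM in father dose 2 libraries, against 115, 122 and 121 CPM in mother dose 2 libraries (0.64 ± 0.13). Rpl39 and Rpl34 differed by 0.67 ± 0.14 and 0.55 ± 0.12. These genes have many processed pseudogenes, which could take or add reads, so single members are uncertain. Rpl30 (0.25 ± 0.23) and Rps27 (0.21 ± 0.20) had the smallest differences, and Rpl26 the largest (1.13 ± 0.42). These 3 were chosen after their values were seen.

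Summed over the 77 genes, ribosomal protein transcripts came to 41188, 56163 and 56243 CPM in father dose 2 libraries, against 33582, 38359 and 33423 CPM in mother dose 2 libraries and 37239, 43276 and 33307 CPM in control-parent libraries. Father dose 2 library A lay inside the control range and libraries B and C lay above it. The mother libraries overlapped the controls. The median over the list was 0.46 (log2) for father dose 2 against control parents and -0.11 for mother dose 2 against the same control libraries. Without father dose 2 library A, the lowest of its group in this sum, the median between father and mother was 0.71. In that fit 72 of 77 genes passed the adjusted p of edgeR's quasi-likelihood test. With library B or library C of that group left out instead, Rpl32 was at 0.68 or 0.63 (log2). Its adjusted p was then 0.322 or 0.307 by the same edgeR test. The summed level was 42687 to 54343 CPM with both parents at dose 2, 37048 to 40282 CPM with a father at dose 1 and 37166 to 40629 CPM with a mother at dose 1. In testis the list's median for the same contrast was -0.05.

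Oocyte genes came next, and 28 of 30 estimates were higher in father dose 2, with a median of 0.47 (log2). CPM are shares of a library, so in bulk ovary more oocytes, more RNA per oocyte and less RNA from other cells cannot be told apart. No member passed the adjusted p of edgeR's quasi-likelihood test, 21 of 30 were higher at an unadjusted p below 0.05 and 0 lower, and 15 of 30 passed DESeq2's Wald test. In 26 of 30 all father dose 2 libraries were above all mother dose 2 libraries, beside 12.3% of all genes. Gdf9, a growth factor that the oocyte sends to its granulosa cells, had 127, 138 and 136 CPM in father dose 2 libraries, against 83.9, 94.3 and 80.7 CPM in mother dose 2 libraries and 100.01, 102 and 84.4 CPM in control-parent libraries (0.63 ± 0.13, log2). Dppa3, a maternal factor that protects the egg's DNA methylation, had 16.7, 18.3 and 16.8 CPM in father dose 2 libraries, against 11.6, 12.3 and 9.43 CPM in mother dose 2 libraries and 14.4, 15.1 and 12.5 CPM in control-parent libraries (0.63 ± 0.12). Khdc3, a component of the subcortical maternal complex, had 32.4, 37.7 and 38.1 CPM in father dose 2 libraries, against 23.2, 26.5 and 21.4 CPM in mother dose 2 libraries and 27.4, 31.1 and 23.8 CPM in control-parent libraries (0.61 ± 0.12). Btg4, an adaptor for the removal of maternal mRNA, had 13.9, 12.5 and 11.4 CPM in father dose 2 libraries, against 6.40, 8.50 and 7.63 CPM in mother dose 2 libraries and 8.31, 8.00 and 7.55 CPM in control-parent libraries (0.74 ± 0.15). For these 4 genes every father library was above every mother and every control library, with an adjusted p of 0.0874 in edgeR's quasi-likelihood test.

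Among genes of the egg coat, chosen after their values were seen, Zp3 had 77.9, 85.3 and 95.5 CPM in father dose 2 libraries, against 52.6, 59.8 and 55.5 CPM in mother dose 2 libraries, and Zp1 and Zp2 differed by 0.44 ± 0.15 and 0.33 ± 0.11 (log2). Transcription factors of the young oocyte stood lower in the order of p, with 0.34 ± 0.11 for Nobox, 0.45 ± 0.21 for Lhx8, 0.56 ± 0.28 for Figla and 0.41 ± 0.22 for Sohlh1. The germ cell helicase gene Ddx4 differed by 0.26 ± 0.18. Sohlh2 (-0.51 ± 0.43) and Kit (-0.07 ± 0.26), a receptor that theca and mast cells also carry, were the 2 with a lower estimate. Summed over the 30 genes, oocyte transcripts came to 1429, 1414 and 1513 CPM in father dose 2 libraries, against 1027, 1158 and 1079 CPM in mother dose 2 libraries and 1229, 1259 and 1092 CPM in control-parent libraries. All father dose 2 libraries lay above the control range and 2 of the 3 mother dose 2 libraries lay below it. The sum was 1044 to 1221 CPM with both parents at dose 2, 896 to 1074 CPM with a father at dose 1 and 908 to 1225 CPM with a mother at dose 1. Without father dose 2 library A the list's median was 0.45 and 5 of 30 passed the adjusted p of edgeR's quasi-likelihood test. With library B or library C of that group left out instead, Dppa3 was at 0.60 or 0.66 (log2). Its adjusted p was then 0.322 or 0.307 by the same edgeR test.

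Because these oocyte genes stood together, the 250 bases before the annotated start of 2 of them are shown, with each E-box (CANNTG, the motif that helix-loop-helix factors such as FIGLA bind) in capitals. They are from RefSeq's mouse promoters on build GRCm38.p6, at chr5:135979855-135980104 for Zp3 and chr9:73102148-73102397 for Khdc3, both on the plus strand.
Zp3: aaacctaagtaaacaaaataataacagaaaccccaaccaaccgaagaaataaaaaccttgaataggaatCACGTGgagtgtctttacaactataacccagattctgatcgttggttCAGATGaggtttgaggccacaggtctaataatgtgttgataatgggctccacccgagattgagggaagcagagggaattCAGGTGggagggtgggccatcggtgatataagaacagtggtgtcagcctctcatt
Khdc3: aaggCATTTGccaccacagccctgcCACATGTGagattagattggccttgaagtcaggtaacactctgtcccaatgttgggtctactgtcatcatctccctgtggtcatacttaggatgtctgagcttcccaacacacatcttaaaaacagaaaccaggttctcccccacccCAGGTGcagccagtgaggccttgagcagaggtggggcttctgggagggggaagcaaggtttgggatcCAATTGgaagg
The motif reads the same on both strands. Zp3 holds 3 E-boxes in this window and Khdc3 holds 5, of which 2 overlap in the run CACATGTG. At least 1 E-box stood in 19 of 23 windows of oocyte-list genes found in the promoter table (82.6%), in 28 of 57 of ribosomal protein genes (49.1%) and in 66.0% of 27025 windows of all genes. A match describes letters only, and binding was not measured.

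**Figure D2:**
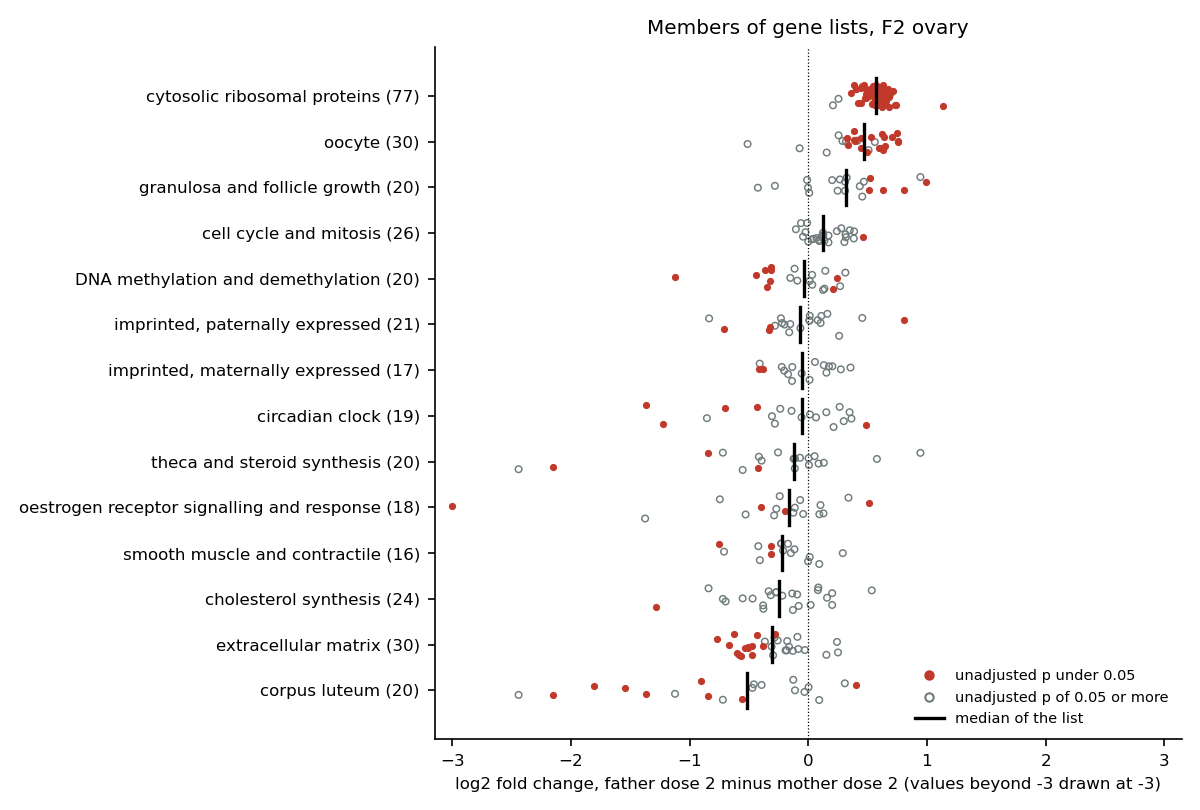
Log2 fold change, father dose 2 minus mother dose 2 (x axis), of each tested member of 14 gene lists (rows, with the number tested); filled points had an unadjusted p below 0.05, black bars are list medians and the dotted line is the median of all genes. Ribosomal protein (median 0.57) and oocyte genes (0.47) lie to the right, and extracellular matrix (-0.30) and corpus luteum genes (-0.52) to the left.

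Granulosa and follicle growth genes had a median of 0.32 (log2; 0.19 without mother dose 2 library C), with 16 of 20 estimates higher in father dose 2, 5 higher at an unadjusted p below 0.05 beside 9.89% of all genes and 0 past the adjusted threshold of edgeR's quasi-likelihood test (3 in DESeq2's Wald test). Fst, the activin antagonist follistatin, had 320, 283 and 290 CPM in father dose 2 libraries, against 180, 148 and 121 CPM in mother dose 2 libraries and 328, 153 and 165 CPM in control-parent libraries (0.99 ± 0.24). Inha, the inhibin alpha subunit, had 3609.5, 3087 and 3223 CPM in father dose 2 libraries, against 2578, 1987 and 1836 CPM in mother dose 2 libraries and 3262, 3134 and 2461 CPM in control-parent libraries (0.63 ± 0.19). Fshr, the receptor for follicle-stimulating hormone, differed by 0.52 ± 0.19 and Bex2 by 0.80 ± 0.23. The list's median was -0.04 for father dose 2 against control parents and -0.36 for mother dose 2 against the same libraries. The aromatase gene Cyp19a1 (0.95 ± 0.67), Amh (0.43 ± 0.28) and Inhba (0.47 ± 0.33), chosen after their values were seen, varied widely between libraries, and Foxl2 and Wt1 were at -0.01 ± 0.14 and -0.00 ± 0.08. The cell cycle list had 21 of 26 estimates higher, with a median of 0.12, 1 gene at an unadjusted p below 0.05 (Birc5, the mitotic survivin, 0.46 ± 0.18) and 0 past the adjusted threshold of either tool. The list's median was 0.49 without mother dose 2 library A and -0.06 without mother dose 2 library C. The value for Birc5 was 0.77 without mother dose 2 library A and 0.26 without mother dose 2 library C. Summed cell cycle transcripts came to 1403, 1538 and 1520.1 CPM in father dose 2 libraries, against 1985, 1143 and 980.5 CPM in mother dose 2 libraries, so mother library A lay above all father libraries and libraries B and C below them.

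Genes of the corpus luteum lay on the other side, with 4 of 20 estimates higher in father dose 2 and a median of -0.52 (log2). None passed the adjusted p of edgeR's quasi-likelihood test, 7 were lower and 1 higher at an unadjusted p below 0.05 beside 10.5% and 9.89% of all genes, and DESeq2's Wald test passed 3 lower and 1 higher. Prlr, the prolactin receptor that maintains the corpus luteum, had 303, 298 and 227 CPM in father dose 2 libraries, against 646, 489 and 417 CPM in mother dose 2 libraries and 371, 513 and 409 CPM in control-parent libraries (-0.91 ± 0.30). Ptgfr, the receptor for the prostaglandin that ends luteal life, had 62.0, 266 and 145 CPM in father dose 2 libraries, against 712, 395 and 553 CPM in mother dose 2 libraries and 221, 144 and 533 CPM in control-parent libraries (-1.81 ± 0.60). Parm1 differed by -1.54 ± 0.46 (-0.75 without mother dose 2 library A), and the lysosomal protease gene Ctsl was the member that was higher (0.40 ± 0.12). Star, which carries cholesterol into mitochondria for steroid synthesis, was named by the rule as a member of the theca and steroid synthesis list. It had 226, 537 and 314 CPM in father dose 2 libraries, against 3353, 437 and 992 CPM in mother dose 2 libraries. Mother dose 2 library A stood far above the other 5, and father library B lay above mother library B. The steroid enzyme Hsd3b1 was at 0.00 ± 0.21 and Cyp11a1 at -0.39 ± 0.21. Akr1c18, which marks regressing corpora lutea, ran from 42.9 to 205 CPM in father dose 2 libraries, from 178 to 1258 CPM in mother dose 2 libraries and from 8.14 to 1305 CPM in control-parent libraries.

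Extracellular matrix genes had 3 of 30 estimates higher in father dose 2, with a median of -0.30 (log2). None passed the adjusted p of edgeR's quasi-likelihood test, 14 of 30 were lower at an unadjusted p below 0.05 beside 10.5% of all genes, and 6 passed DESeq2's Wald test. Nid1, a linker of basement membranes, had 304, 258 and 286 CPM in father dose 2 libraries, against 526, 351 and 395 CPM in mother dose 2 libraries and 333, 320 and 371 CPM in control-parent libraries (-0.58 ± 0.15). Col4a1, the basement membrane collagen, had 1108, 1292 and 1307 CPM in father dose 2 libraries, against 2074, 1688 and 2131 CPM in mother dose 2 libraries and 1251, 1444 and 2317 CPM in control-parent libraries (-0.67 ± 0.20). Col5a1 differed by -0.51 ± 0.15 and the small proteoglycan Bgn by -0.54 ± 0.16 (-0.35 without mother dose 2 library A). Summed over the 30 genes, matrix transcripts came to 13467, 13511 and 13359.8 CPM in father dose 2 libraries, against 19142, 15747 and 17159 CPM in mother dose 2 libraries and 14471, 13418 and 16357 CPM in control-parent libraries. The list's median was -0.08 for father dose 2 against control parents and 0.23 for mother dose 2 against the same control libraries. Smooth muscle genes had 3 of 16 estimates higher, with a median of -0.22 (-0.06 without mother dose 2 library C, -0.11 without father dose 2 library B and -0.34 without mother dose 2 library B). Of these 16 genes, 3 were lower at an unadjusted p below 0.05, beside 10.5% of all genes.

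**Figure D3:**
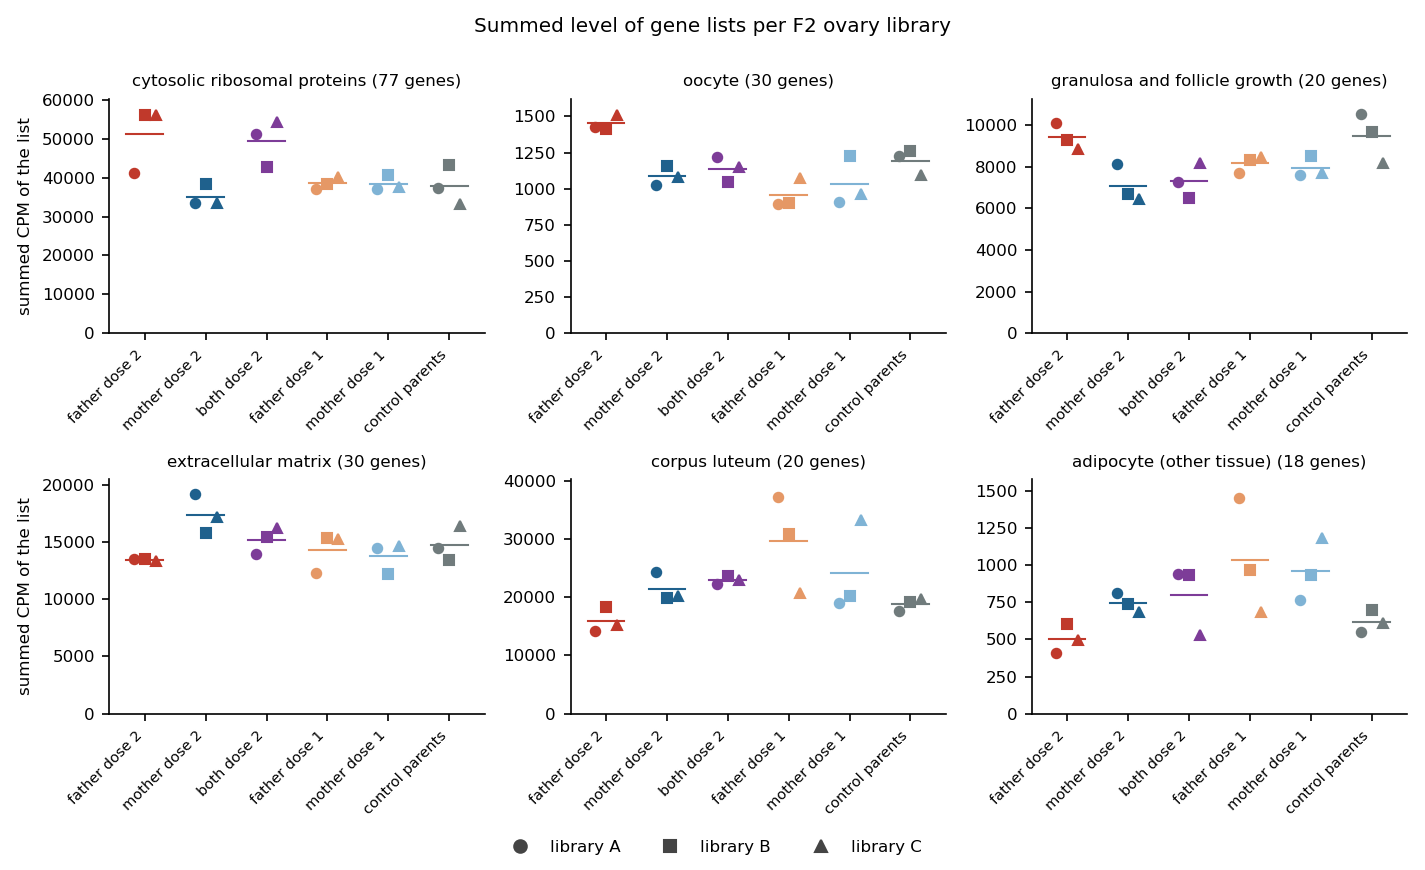
Summed CPM (y axis, from 0) of 6 gene lists in each of the 18 F2 ovary libraries, by group (x axis); points are libraries and lines group means. Oocyte genes sum to 1414 to 1513 CPM in father dose 2 libraries and 1027 to 1158 CPM in mother dose 2 libraries, and ribosomal protein genes show father dose 2 library A at 41188 CPM, below libraries B and C of its group.

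Transcript length moved with the result. The longest annotated transcript was taken from GENCODE vM21 for 91.2% of genes. Among 308 genes under 750 bases 78.9% had a higher estimate in father dose 2, with a median of 0.29 (log2), and among 896 genes of 8000 bases or more 17.0% had a higher estimate, with a median of -0.26. The medians of the bins between lay in order of length, and those of the 3 shortest bins were 0.29, 0.28 and 0.21. The median of genes under 1000 bases minus that of genes of 6000 bases or more, on log2(CPM + 1) relative to the mean of the 18 libraries, was -0.05, 0.37 and 0.26 in father dose 2 libraries A, B and C, against -0.21, -0.14 and -0.33 in mother dose 2 libraries and -0.12, -0.07 and -0.26 in control-parent libraries. It was 0.24, 0.09 and 0.72 with both parents at dose 2. Ribosomal protein genes, with a median of 1094 bases, are short, oocyte genes (1843 bases) less so, and matrix genes (5806.5 bases) are long. Set against the median of their own length bin, 76 of 77 ribosomal protein genes, 27 of 30 oocyte genes and 7 of 30 matrix genes were above it. These bins, and the trend removal that follows, use the longest transcript, which can exceed the one expressed. For ribosomal protein genes it ran from 383 to 5179 bases. The length of the transcripts expressed was not measured, so a difference beyond length was not tested. With the length trend removed from each library, an alternative chosen after the data were seen, 0 genes passed the adjusted p of edgeR's quasi-likelihood test. The list medians were then 0.37 for ribosomal protein genes (72 of 77 at an unadjusted p below 0.05), 0.38 for oocyte genes (19 of 30), 0.34 for granulosa genes, -0.51 for corpus luteum genes and -0.15 for matrix genes (6 lower and 2 higher of 30).

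**Figure D4:**
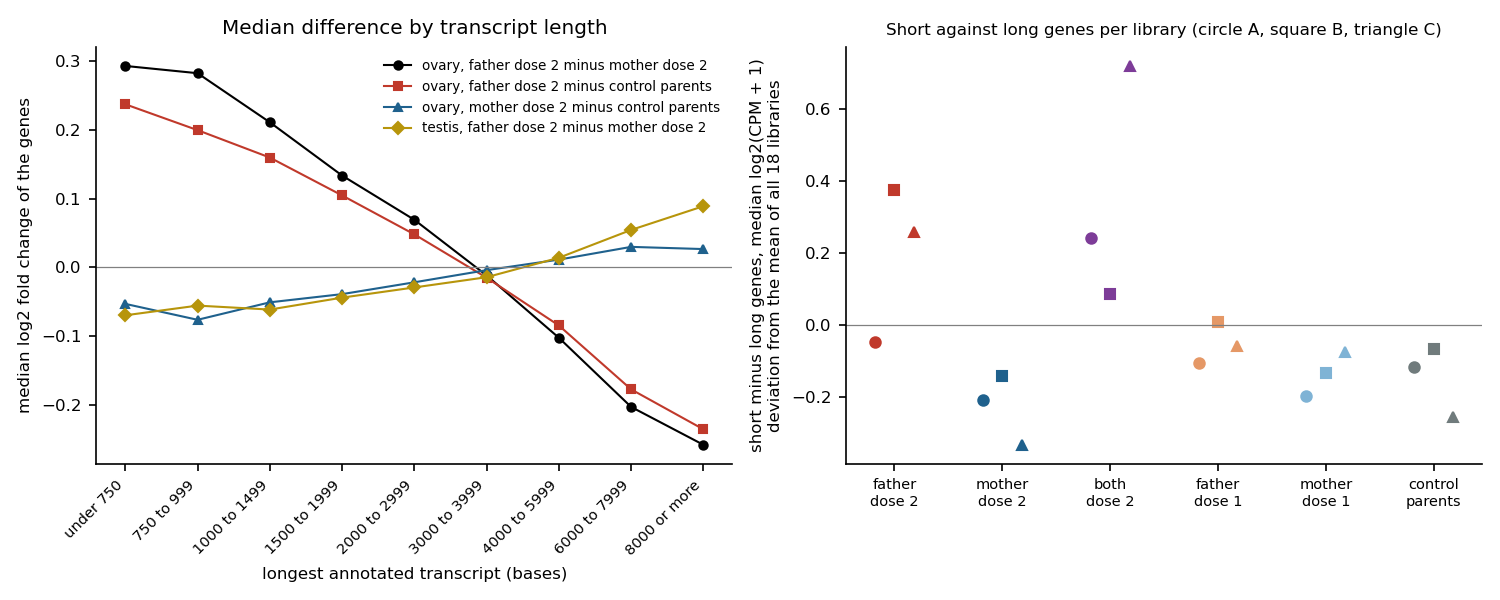
Left, median log2 fold change (y axis) of genes in 9 bins of longest transcript (x axis, bases) for 4 comparisons; right, short minus long genes per F2 ovary library. Father dose 2 minus mother dose 2 runs from 0.29 in the shortest bin to -0.26 in the longest, and the testis comparison of the same parents from -0.07 to 0.09.

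Other lists bear on inheritance and on the compounds. Of genes for DNA methylation and demethylation, 2 of 20 were higher and 7 lower at an unadjusted p below 0.05, beside 9.89% and 10.5% of all genes, and 0 passed the adjusted p of edgeR's quasi-likelihood test or of DESeq2's Wald test. Tet3, the oxidase of the egg and zygote, had 123, 103 and 109.8 CPM in father dose 2 libraries, against 135, 149 and 172 CPM in mother dose 2 libraries and 147, 147 and 156 CPM in control-parent libraries (-0.44 ± 0.14), while Zbtb33 differed by -0.37 ± 0.12 and Dnmt3a by -0.32 ± 0.11. These are long transcripts, and with the length trend removed 3 members were lower and the list's median was 0.02. Of imprinted genes, 10 of 21 paternally expressed and 8 of 17 maternally expressed had a higher estimate in father dose 2, near the share of all genes. Among them Igf2r, a maternally expressed receptor that clears IGF2, differed by -0.42 ± 0.11, Peg3 by -0.71 ± 0.30 (-0.39 without mother dose 2 library A) and Nnat by 0.80 ± 0.33 (0.52 without father dose 2 library C), and 0 passed the adjusted p of edgeR's quasi-likelihood test. At an unadjusted p below 0.05 in that test, 1 paternally expressed gene was higher and 3 lower. Of the maternally expressed genes 0 were higher and 2 lower, beside 9.89% and 10.5% of all genes. DESeq2's Wald test passed 1 lower maternally expressed gene and 0 paternally expressed genes.

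Of oestrogen receptor and response genes, 5 of 18 had a higher estimate. At an unadjusted p below 0.05, 1 was higher and 3 lower, beside 9.89% and 10.5% of all genes. None passed the adjusted p of edgeR's quasi-likelihood test (1 in DESeq2's Wald test). Esr2, the oestrogen receptor of granulosa cells, had 136, 144 and 179 CPM in father dose 2 libraries, against 86.7, 126 and 109.8 CPM in mother dose 2 libraries (0.51 ± 0.20), and Ltf, an oestrogen-induced gene of the reproductive tract, was led by mother dose 2 library A, at 13.8 CPM beside at most 1.04 CPM in the other 5 libraries compared. Of prostaglandin genes, whose cyclooxygenases are the targets of ibuprofen and diclofenac, 3 of 19 were higher and 1 lower at an unadjusted p below 0.05, beside 9.89% and 10.5% of all genes, with a median of -0.01, and 1 lower gene passed DESeq2's Wald test. The gene lower at that unadjusted p was Ptgfr, the receptor given above with the corpus luteum genes, and not a cyclooxygenase. Of drug and steroid metabolism genes 3 of 14 were higher and 3 lower at that p, and 1 lower gene passed DESeq2's Wald test. In the circadian list 1 of 19 was higher and 4 lower, beside the same shares of all genes, and 3 lower genes passed DESeq2's Wald test. The lower genes were led by the clock activators Arntl (18.2, 14.9 and 16.5 CPM in father dose 2 libraries, against 28.1, 24.5 and 28.1 CPM in mother dose 2 libraries and 23.3, 39.2 and 34.3 CPM in control-parent libraries; -0.70 ± 0.18) and Clock (-0.43 ± 0.13), and the hour of sampling is not among the labels. Cirbp, the cold-inducible relative of Rbm3, differed by 0.37 ± 0.09.

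Summed adipocyte, oviduct, skeletal muscle and macrophage markers did not overlap between father dose 2 and mother dose 2, while summed lymphocyte, mast cell and granulocyte markers and erythrocyte markers did. The gap was narrow for skeletal muscle, at 16.65 to 20.6 CPM in father dose 2 libraries and 15.4 to 16.59 CPM in mother dose 2 libraries. Control-parent libraries had 17.2 to 19.3 CPM of skeletal muscle markers. Adipocyte genes summed to 409 to 606 CPM in father dose 2 libraries, 684 to 814 CPM in mother dose 2 libraries and 551 to 698 CPM in control-parent libraries, and their median difference of -1.20 (log2; 5 of 18 estimates higher) was 0.15 without mother dose 2 library C. That library alone held fat tissue's Adipoq at 3.37 CPM and Cfd at 18.5 CPM, where the other 5 libraries compared had at most 0.187 and 0.351 CPM. Its adipocyte sum was nevertheless the lowest of its group, at 684 CPM beside 814 and 740 CPM in mother dose 2 libraries A and B. The part of these markers in the other results was not tested beyond leaving each library out. Oviduct genes (11 of 19 estimates higher, median 0.04) summed to 107 to 111 CPM in father dose 2 libraries, 97.0 to 102 CPM in mother dose 2 libraries and 85.3 to 113 CPM in control-parent libraries, with the secretory marker Ovgp1 at 3.65 to 5.15 CPM in father dose 2 libraries and 4.04 to 7.20 CPM in mother dose 2 libraries. Macrophage and MHC class II genes had 16 of 20 estimates higher in father dose 2 with a median of 0.18 (0.10 without father dose 2 library A or mother dose 2 library C), and 0 reached an unadjusted p below 0.05. They summed to 1096 to 1325 CPM in father dose 2 libraries, 808 to 1079 CPM in mother dose 2 libraries and 736 to 2197 CPM in control-parent libraries.

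Set against F2 ovaries of control parents, 1 gene passed for father dose 2 and 0 for mother dose 2. Metrnl was the gene higher in father dose 2 than in control parents (0.97 ± 0.12, log2, adjusted p = 0.0155 by edgeR's quasi-likelihood test), again 0.00573% of 17454 genes. All libraries of the other F2 groups were also above the control libraries for Metrnl. It had 48.5, 51.9 and 53.5 CPM at father dose 1 and 57.7, 67.5 and 57.7 CPM at mother dose 1. With both parents at dose 2 it had 75.2, 63.2 and 54.8 CPM. At an unadjusted p below 0.05 there were 2765 genes (15.8%) for father dose 2 and 1017 (5.83%) for mother dose 2. The mother dose 2 comparison passed 0 genes (0%) in edgeR's quasi-likelihood test and 14 in DESeq2's Wald test, and the father dose 2 comparison 370 in DESeq2. For Bsn the differences from control parents were -0.74 ± 0.19 for father dose 2 and 0.67 ± 0.18 for mother dose 2. For Gdf9 they were 0.49 for father dose 2 and -0.15 for mother dose 2, and for Rpl32 0.60 and -0.15.

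Whether the father against mother difference itself depended on dose was tested as dose 2 minus dose 1, in which the dose 1 crosses are other libraries. No gene passed (0%) the adjusted p of edgeR's quasi-likelihood test, 2249 genes (12.9%) had an unadjusted p below 0.05 and 127 passed DESeq2's Wald test. The difference for Bsn was -1.42 ± 0.26 (log2) and for Metrnl 0.93 ± 0.17, each with an adjusted p of 0.254 by edgeR's quasi-likelihood test. The list medians of this difference were 0.56 for ribosomal protein genes, 0.57 for oocyte genes, 0.32 for granulosa genes, -0.31 for matrix genes and -0.74 for corpus luteum genes.

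In testis, the same crosses at dose 2 gave 21 genes of 19241 (0.109%) past the adjusted p of edgeR's quasi-likelihood test, 12 higher and 9 lower in father dose 2, with 1374 (7.14%) at an unadjusted p below 0.05 and 93 in DESeq2's Wald test. Of these 21 genes 13 were also tested in ovary and 0 passed there by edgeR's quasi-likelihood test (2 of 13 at an unadjusted p below 0.05, beside 3559 of all 17454 genes). Those 2 were Cmc1, a factor of mitochondrial complex IV assembly (0.43 ± 0.14 in ovary), and Carmil1, a regulator of actin capping (-0.31 ± 0.13 in ovary). By the design the males were older at sampling, so tissue, sex and age differ together between testis and ovary, and their separate parts were not tested.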

How the data were processed

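RNA was measured by sequencing in 54 libraries of mouse testis and ovary. The authors deposited 1 table per tissue with raw counts, as whole numbers, for each gene. Per the submitters' processing notes the tools included TopHat2 2.1.1, Bowtie2 2.4.5, SAMtools 1.13 and featureCounts 2.0.3, with genome build mm39. The sources used here give neither the strand setting nor the annotation, so values of antisense or overlapping genes are uncertain. The table has 26264 entries, 133 of them without a gene ID, and these stayed in totals and tests.

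Groups came from the labels. The test was edgeR 4.0.16's quasi-likelihood test (robust, R 4.3.3, limma 3.58.1) with TMM factors, the edgeR filter at a minimum count of 10 and Benjamini-Hochberg adjustment over all genes, threshold 0.05. All 18 F2 ovary libraries shared 1 fit on group, which adds the spread of the other groups. Testis was fitted likewise. Alternatives were DESeq2 1.42.0, RLE size factors, no filter, no robust estimates, a replicate block, other libraries in the fit, each library left out, and, added after the data were seen, a loess trend of transcript length removed per library. The steps were tested on simulated data. Counts in replicate libraries were compared by chi-square, and none agreed within sampling noise (lowest 21.1 per gene among the 6 libraries).

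Genes that passed are named where their mean reached 1 CPM and the libraries compared did not overlap, filled up to 5 each way by smallest p under the same conditions. Up to 4 members of each list are named by smallest p, whether or not their libraries overlapped. The members and the 31 gene lists were chosen with earlier results of these data known; 30 lists had a tested member, and genes of mitochondrial DNA were not analysed here. No coordinates of genes are given, because the reference annotation is of another build. Some genes are not reported here.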

Additional observations from a re-analysis of the deposited data

How the results depend on the processing

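The letters A, B and C were not taken to pair the samples: deviations from the group means correlated by 0.0931, 0.0499 and 0.141 between same-letter libraries of father dose 2 and mother dose 2, and not all exceeded 0.1, although each father dose 2 library correlated best with its own letter. With the replicate block, 0 genes passed in place of 1 in ovary and 11 in place of 21 in testis.

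The number of genes past the adjusted p was the result most open to the processing. With DESeq2 it was 920 for father dose 2 against mother dose 2, 370 for father dose 2 against control parents, 14 for mother dose 2 against control parents, 127 for the dose difference and 93 in testis. With only the libraries compared it was 0 in ovary and 61 in testis, with all 27 libraries of a tissue 0 for father against mother, 0 for father against control and 6 in testis, and with the length trend removed 0 for father against mother and 0 for father against control. Leaving out 1 library gave 0 to 424 genes between father and mother dose 2 (424 without father dose 2 library A, 9 without mother dose 2 library B), 0 to 108 against control for father dose 2 (108 without its library A, 3 without control-parent library A), 0 to 1 against control for mother dose 2, 0 to 1 for the dose difference and 0 to 47 in testis. The cause of these shifts was not tested.

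Of the 78 genes named by the rule, 621 of 622 values under the other settings kept their direction. The exception was Ncoa3, at 0.020 (log2) with the length trend removed and -0.20 in the fit reported. For the named members of lists, 408 of 408 values with a library left out kept theirs. The named genes had been chosen for small p in these same libraries. A kept direction was therefore likely beforehand, and these counts are no separate support. The adipocyte list median was -0.12 (11 genes tested) with only the libraries compared and -1.20 (18 genes) in the fit reported. Total counts limit genes of low level most, and with 3 libraries a group the adjusted threshold is reached by differences that are large beside their spread.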

Other observations

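In the other gene lists 0 members passed the adjusted p of edgeR's quasi-likelihood test. Their counts at an unadjusted p below 0.05 stand beside 9.89% of all genes higher and 10.5% lower. Cholesterol synthesis genes had 7 of 24 estimates higher in father dose 2, with a median of -0.24 (log2) and 1 lower at an unadjusted p below 0.05. Hmgcs1, an early enzyme of that pathway, had 401, 521 and 315 CPM in father dose 2 libraries, against 1088, 449 and 468 CPM in mother dose 2 libraries. For this gene mother dose 2 library A stood above the other 5 libraries, as it did for Star. That library held the theca cell enzyme gene Cyp17a1 at 54.0 CPM, below the other 5: it had 683, 572 and 492 CPM in father dose 2 libraries, against 54.0, 1282 and 996 CPM in mother dose 2 libraries. Theca and steroid synthesis genes had 7 of 20 estimates higher (0 higher and 3 lower at that p, median -0.12), periovulatory genes 5 of 19 (1 and 3, -0.17), immediate early genes 4 of 20 (0 and 1, -0.20), antioxidant genes 17 of 25 (2 and 0, 0.04) and heat shock and cold-inducible genes 5 of 16 (3 and 0, -0.06). Skeletal muscle genes had 8 of 12 higher (1 and 0, 0.20), surface epithelium genes 5 of 14 (1 and 1, -0.04) and testis germ cell genes 2 of 7 (0 and 0, -0.25). Endothelial (10 of 20, median -0.02), lymphocyte, mast cell and granulocyte (9 of 18, -0.02), interferon-stimulated (10 of 24, -0.12) and erythrocyte genes (2 of 4, 0.04) had 0 members at an unadjusted p below 0.05 in edgeR's quasi-likelihood test. DESeq2's Wald test passed 1 higher and 1 lower periovulatory gene, 1 lower immediate early gene, 2 higher heat shock and cold-inducible genes and 1 higher antioxidant gene among these lists.

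The 8 gene families below were looked up after the values had been seen, so their counts are descriptions with no test. Of 15 genes of the oocyte F-box family (Fbxw13 to Fbxw28), whose close relatives make single counts uncertain, 15 had a higher estimate in father dose 2 than in mother dose 2, with a median of 0.52 (log2). Fbxw24 averaged 37.1 CPM in father dose 2, 24.3 CPM in mother dose 2 and 28.6 CPM in control parents, and Fbxw18 averaged 21.3, 13.9 and 16.7 CPM in the same order. Of 49 complex I subunit and assembly genes (Nduf) 49 had a higher estimate, with a median of 0.29, and of 78 mitochondrial ribosomal protein genes 76 did, with a median of 0.22. Proteasome subunits (37 of 40 higher, median 0.17), small nucleolar RNA host genes (16 of 17, 0.39) and initiation factor genes (39 of 54, 0.12) were also mostly higher. At an unadjusted p below 0.05 there were 14 higher F-box genes and 0 lower, 28 and 0 Nduf genes, 36 and 0 mitochondrial ribosomal protein genes, 14 and 1 proteasome genes, 9 and 0 host genes and 14 and 4 initiation factor genes, beside 9.89% and 10.5% of all genes. Collagen genes had 11 of 42 estimates higher, with a median of -0.29, 1 higher and 14 lower at that p. Genes of the clustered protocadherins, neural cell adhesion molecules, had 0 of 44 estimates higher, with a median of -0.54 and 20 lower at an unadjusted p below 0.05. The median longest transcript was 1170.5 bases for the Nduf genes and 4688 bases for the protocadherins, and the medians of all genes in the bins that hold these lengths were 0.21 and -0.10.

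The genes below were picked after the values were seen, from the larger differences each way among genes that met 4 conditions. These were an unadjusted p below 0.05 in edgeR's quasi-likelihood test, a mean of at least 1 CPM, libraries that did not overlap and no predicted or clone name. Some genes outside these conditions differed by more. None of the genes below passed the adjusted p of that test, and in some of them 1 library stood far from the others. Prap1 had 0.0231, 0 and 0 CPM in father dose 2 libraries, against 10.7, 0.863 and 0.115 CPM in mother dose 2 libraries. Tlcd4 had 2.68, 6.08 and 3.94 CPM in father dose 2 libraries, against 239, 12.0 and 13.2 CPM in mother dose 2 libraries. Mother dose 2 library A held most of the signal of these libraries, and father dose 1 libraries had 86.0, 100.5 and 8.69 CPM. Cyp4f18, a fatty acid hydroxylase gene, was high in all mother dose 2 libraries, at 75.7, 67.1 and 48.5 CPM. It had 1.85, 21.8 and 3.09 CPM in father dose 2 libraries and a mean of 3.52 CPM in control-parent libraries. Single libraries of other groups were also high, with 12.9, 172 and 5.85 CPM at father dose 1. Cyp4f18 had 35.1, 10.5 and 33.5 CPM at mother dose 1 and 7.54, 2.95 and 35.8 CPM with both parents at dose 2. On the other side Dnajb13, a chaperone of sperm and cilia, had 15.5, 24.9 and 32.0 CPM in father dose 2 libraries, against 8.03, 9.88 and 5.43 CPM in mother dose 2 libraries. Nppc, the granulosa cell signal that holds oocytes in meiotic arrest, had 41.0, 27.7 and 21.0 CPM in father dose 2 libraries, against 15.8, 9.80 and 9.81 CPM in mother dose 2 libraries. Edn1, the peptide endothelin 1, had 10.4, 10.2 and 10.7 CPM in father dose 2 libraries, against 2.53, 5.78 and 5.41 CPM in mother dose 2 libraries.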
